A study of Homo sapiens with 24 samples.

Results

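The comparison described here is that of parental MCF-10A cells after 8 h of 4-hydroxytamoxifen (4-OHT) with the same cells at 0 h, across all genes. Its members are the 3 libraries labelled parental 8 h and the 3 labelled parental 0 h, 6 of the 24 libraries in the series, chosen by their labels alone. MCF-10A is an immortalised, non-tumorigenic human mammary epithelial cell line. It was grown as a three-dimensional culture on Matrigel, a basement membrane gel, and received 1 µM 4-OHT from day 3 on, for 0, 8, 24 or 48 h, with every culture collected on day 5. The labels give the same start and collection days for every group. A treatment of 8 h that ended at collection would cover the last 8 h of culture, but the labels do not state this. The 0 h group received no 4-OHT. The labels name no vehicle for the 0 h group, so that the drug and whatever it was dissolved in cannot be told apart. The other line of the series, MCF-10A MYC-ER, carries MYC fused to the ligand-binding domain of an oestrogen receptor and went through the same time course; neither parental group carries the fusion. Cells were seeded in triplicate, but nothing says that the 3 libraries of a group came from separate cultures. The p-values therefore measure spread between libraries, pooled over all 24 libraries of the series unless said otherwise.

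4-OHT is the active form of tamoxifen. It binds oestrogen receptors α and β, acting on them as an antagonist or partial agonist depending on the tissue, and has also been reported to bind the membrane receptor GPER1 and the aryl hydrocarbon receptor. In systems with an oestrogen receptor fusion it serves as the switch that releases the fused protein, so cells without the fusion are the usual measure of what the ligand changes by itself. MCF-10A cells grow on epidermal growth factor, hydrocortisone and insulin, and form rounded, basement membrane-bound acini on Matrigel.

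The 6 libraries held 156230762 to 182438505 counts, and levels are given in CPM, counts per 1000000 of a library total scaled by TMM, a correction for differences in composition. A count of 0 allows a level of up to 0.0192 per 1000000 of the unscaled total, which is 3 counts in the smallest library and covers counting error alone. The 0 h group stood apart by its spread. Over 9664 genes of at least 10 CPM the median SD of log2 CPM between its replicates was 0.171, against 0.0421 in the 8 h group and 0.0362 to 0.0794 in the other 6 groups. Its replicates differed by gene composition: the deviation of replicate 2 from the group mean fell with GC content across genes (Spearman's rho -0.685), whereas those of replicates 1 and 3 rose with it (0.579 and 0.532). Mitochondrial transcripts took 3.86%, 7.28% and 7.03% of counts in 0 h replicates 1, 2 and 3, and 6.5% to 7.73% at 8 h. In the plot of levels by GC content, 0 h replicate 2 runs the way the 8 h libraries do, with 0 h replicates 1 and 3 the opposite way.

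**Figure D1:**
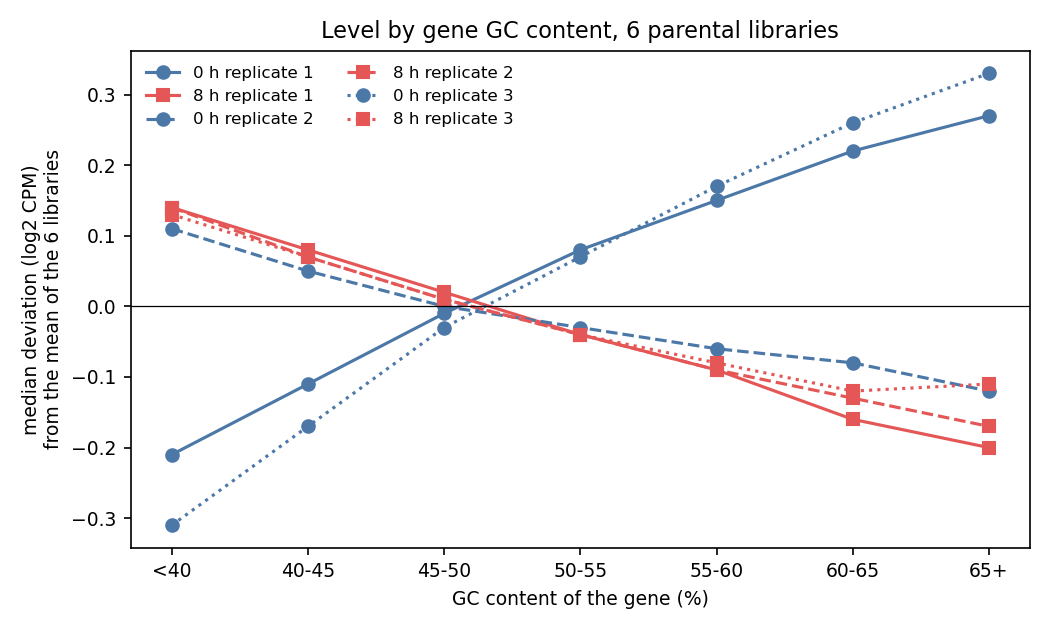
Median deviation in log2 CPM of each parental library from the mean of the 6 (y axis) for genes grouped by GC content (x axis, %), with circles for 0 h and squares for 8 h. Below 40% GC the 8 h libraries lie at 0.13 to 0.14 and 0 h replicate 2 at 0.11, while 0 h replicates 1 and 3 lie at -0.21 and -0.31.

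Of 22158 genes tested in a fit of all 24 libraries, 31.0% passed an adjusted p of 0.05, 15.0% higher and 16.0% lower at 8 h, and 2.18% changed at least 2-fold (1.08% higher, 1.1% lower). All adjusted p-values given here are from edgeR's quasi-likelihood test with Benjamini-Hochberg adjustment over all genes tested. Unless said otherwise they come from the fit of all 24 libraries, which pools the spread of all groups. The 0 h group had a wider spread than the other groups, as given above. Replicate values did not overlap in 33.9% of genes, 16.7% with 8 h higher and 17.2% with 8 h lower. Calls followed composition: genes called higher had a median GC content of 42.0%, those called lower 56.8%, and all tested genes 48.6%. Of genes under 40% GC, 56.1% were called higher and 2.15% lower, while of genes at 65% GC or more 1.79% were higher and 68.1% lower. With each library's GC trend removed the share called was 23.5%, with median GC contents of 48.9% for higher and 49.3% for lower calls. A fit of the 6 libraries alone, which takes the spread from these groups only, called 7.41%, with 3.20% higher and 4.2% lower. The part of GC content and of 0 h replicate 2 in any single result was not tested, so lists below are given with those of their genes called, in the same direction, in all of 19 other fits (listed with the processing). Such genes, called kept here, were 998 in all (4.5% of those tested), 480 higher (2.17%) and 518 lower (2.34%), and 92 and 95 of these changed at least 2-fold. Counts in each list below are to be read beside the 15.0% higher and 16.0% lower over all genes tested. Those shares include many non-coding genes, which were called less often (of 1657 lincRNA genes 72 higher and 125 lower). Among 15012 protein-coding genes tested, 3037 were called higher and 3118 lower, which are larger shares, so many lists hold calls in both directions. A list share somewhat above 15.0% or 16.0% need not differ from that of protein-coding genes.

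The largest rises among well expressed genes, of which 11 are given here, included genes of secreted signals, matrix turnover and clotting, and all 11 were kept. INHBA (ENSG00000122641.11), which encodes the subunit of activin A, a ligand of the TGF-beta family, had 5.10, 6.06 and 3.63 CPM at 0 h and 14.8, 15.8 and 20.7 CPM at 8 h. The groups lay wide apart, and the log2 change was 1.79 (SE 0.16, adjusted p 1.66e-07). ALDH1A3 (ENSG00000184254.17), an enzyme that makes retinoic acid, had 7.46, 8.91 and 6.83 CPM at 0 h and 27.7, 22.8 and 28.1 at 8 h, a 3.39-fold rise (SE of the log2 change 0.10, adjusted p 8.55e-10). In the fit of the 6 libraries alone the adjusted p was 0.00817 for INHBA and 0.00478 for ALDH1A3. LRRC8C (ENSG00000171488.15), a subunit of the volume-regulated anion channel, went from 13, 18.1 and 12.2 to 38.5, 36.1 and 41.1 CPM. Of its 4 partner subunits, LRRC8B rose by 0.82, LRRC8A fell by 0.19 and the others did not pass the threshold. LRRC8C alone of the 5 was kept.

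ANGPTL4 (ENSG00000167772.12), a secreted inhibitor of lipoprotein lipase, had 56.6, 36.8 and 58.5 CPM at 0 h and 128, 108 and 158 at 8 h (log2 change 1.38, SE 0.18, adjusted p 1.17e-05). EGLN3 (ENSG00000129521.14), an oxygen-sensing prolyl hydroxylase, had 5.31, 4.22 and 7.33 CPM and then 10.7, 11.4 and 20.9. Its 8 h values were all above those at 0 h, as the rule for naming genes required, with replicate 3 well above the other 8 h libraries. The log2 change of 1.35 had the largest error of the 11 (SE 0.30, adjusted p 0.00197, and 0.0383 in the fit of the 6 libraries). PRDM1 (ENSG00000057657.17), the transcriptional repressor BLIMP1, rose by 1.28, and F3 (ENSG00000117525.14), the tissue factor that starts coagulation, by 1.22, from 32.9 to 36.6 CPM up to 70.0 to 89.0 CPM. CCNE2 (ENSG00000175305.17), the cyclin E2 that drives entry into S phase, had 6.17, 11.1 and 5.6 CPM at 0 h and 16.0, 18.8 and 18.2 at 8 h. SNX10 (ENSG00000086300.15), a sorting nexin of endosomes, rose by 1.20, and MMP1 (ENSG00000196611.5), the interstitial collagenase, by 1.17. ITGA2 (ENSG00000164171.11), the α2 subunit of a collagen-binding integrin, had 36.9, 66.6 and 34.1 CPM at 0 h and 98.1, 97.9 and 104 at 8 h; replicate 2 of the 0 h group lay between the others and the 8 h libraries for ITGA2 and CCNE2.

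The 12 largest falls included transcription factors, signalling genes, histone genes and an enzyme of proline breakdown, and all 12 were kept. SAMD11 (ENSG00000187634.12), a SAM-domain protein of chromatin, had 15.8, 11.4 and 14.5 CPM at 0 h and 3.19, 3.44 and 2.14 at 8 h. TP73 (ENSG00000078900.15), a member of the p53 family, went from 21.3, 15.9 and 19.5 to 5.47, 7.52 and 5.56 CPM. ATOH8 (ENSG00000168874.13), a basic helix-loop-helix factor induced by BMP signals, went from 14.5, 10.9 and 15.5 to 4.99, 5.59 and 3.76 CPM (log2 change -1.51, SE 0.14, adjusted p 2.65e-07). In each of these genes the lowest 0 h library was replicate 2. It lay above every 8 h library, which the rule that chose the genes required.

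TSC22D3 (ENSG00000157514.16), which encodes the glucocorticoid-induced leucine zipper GILZ, had 155, 133 and 152 CPM at 0 h and 56.9, 59.9 and 51.6 at 8 h. Its log2 change of -1.38 had one of the smallest errors of the 23 (SE 0.074, adjusted p 4.33e-10). GPER1 (ENSG00000164850.15), the G protein-coupled oestrogen receptor named above as a binding partner of 4-OHT, had 27.3, 20.1 and 26.4 CPM and then 9.88, 11 and 10.7 (log2 change -1.23, SE 0.099, adjusted p 4.52e-08). PPFIBP2 (ENSG00000166387.13), a liprin of cell adhesion sites, fell by 1.13, BCL6 (ENSG00000113916.18), a transcriptional repressor, by 1.07, PRODH (ENSG00000100033.16), which starts proline breakdown, by 1.04, and GNAO1 (ENSG00000087258.15), a G protein α subunit, by 1.01 on the log2 scale. GNAO1 had nearly equal 0 h values, 13.5, 13.3 and 13.6 CPM, and 5.90, 7.67 and 6.48 CPM at 8 h. The histone genes H4C15 and H4C14 fell by 1.12 and 1.08 and WFDC21P, a pseudogene, by 1.40. H4C14 and H4C15 are near-identical copies and WFDC21P has relatives in the same family, so their separate values are uncertain.

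**Figure D2:**
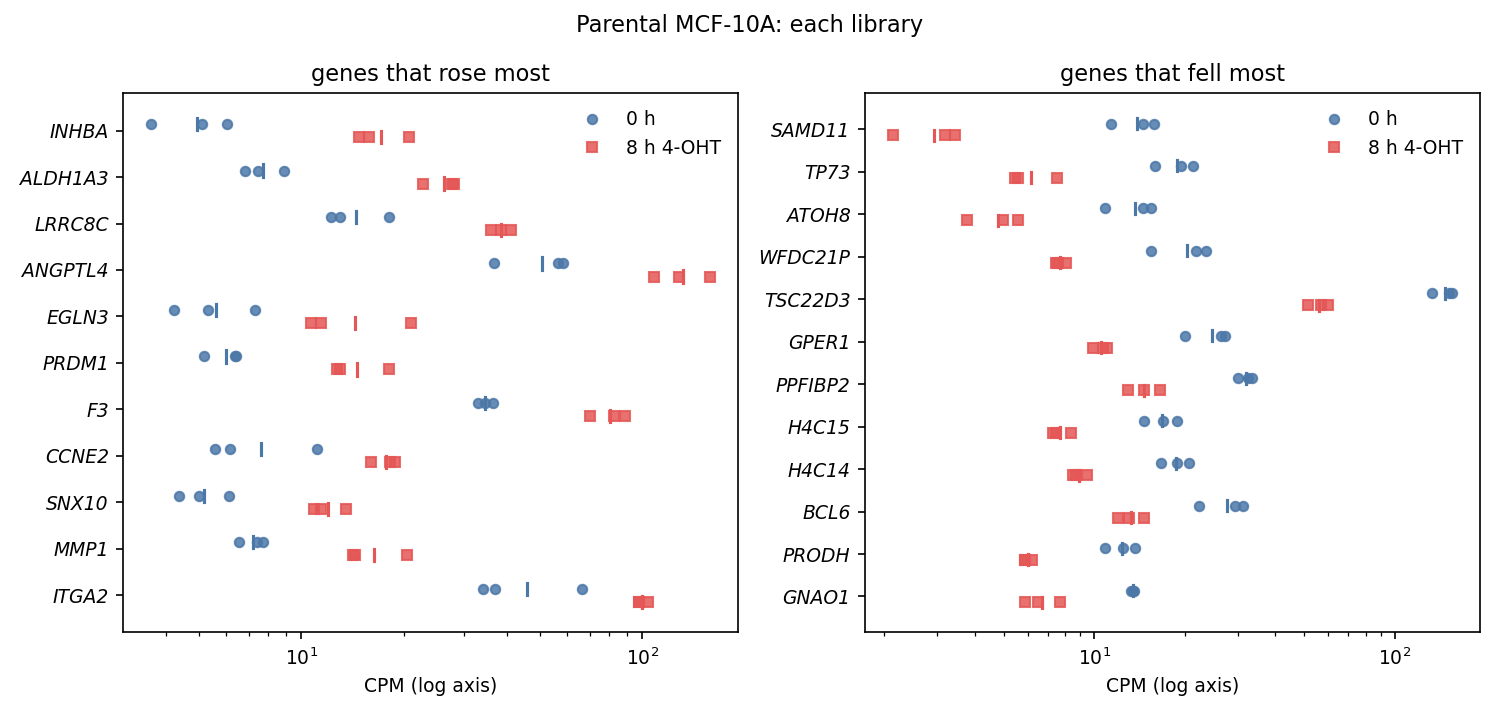
CPM on a log axis (x) of 11 genes that rose most (left) and the 12 that fell most (right) in each library, with circles for 0 h, squares for 8 h and a short bar at each group's mean of 3. The groups do not overlap in any gene, which the rule that chose the genes required, and the 0 h values of ITGA2 spread from 34.1 to 66.6 CPM while its 8 h values lie between 97.9 and 104.

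The receptors that 4-OHT could act on, and the genes that usually follow them, were read next. ESR1, oestrogen receptor α, had 0.178, 0.240 and 0.131 CPM at 0 h and 0.351, 0.158 and 0.185 at 8 h, and was not called (adjusted p 0.65). Of 20 oestrogen-responsive genes 15 were tested; TFF1, PGR, CXCL12 and TFF3 were listed at 0 counts in all 6 libraries. Of the 15, 6 rose and 3 fell, with a median log2 change of 0.04 against 0.00 over all genes tested. AREG, an epidermal growth factor receptor ligand, was the only kept member. GREB1, a gene that oestrogen induces strongly in breast cancer cells, fell by 0.27 with an adjusted p of 0.0239. It missed the threshold in 11 other fits, including the one with the GC trend removed (-0.18, adjusted p 0.197).

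Targets of the aryl hydrocarbon receptor showed no kept change: 3 of 10 rose, 1 fell and the median was 0.10. Over all genes tested 15.0% were called higher and 16.0% lower. CYP1A1, its most used indicator, had 0.669, 0.714 and 0.607 CPM at 0 h and 0.690, 0.735 and 0.469 at 8 h (log2 change -0.07, SE 0.28, adjusted p 0.891). CYP1B1 differed by 0.23 (SE 0.20, adjusted p 0.412) and AHRR, the receptor's repressor, by -0.34 (SE 0.27, adjusted p 0.379). TIPARP, an ADP-ribosyltransferase that the receptor induces, rose by 0.35, and LRAT, which stores retinol as esters, by 0.56.

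Genes of the hypoxia response rose together. Of 15 members, all tested, 11 rose and 0 fell, 6 of them kept, and the median log2 change was 0.63; without 8 h replicate 3 there were 8 rises and the median was 0.41. VEGFA, the main angiogenic growth factor, had 113, 120 and 105 CPM at 0 h and 150, 149 and 178 at 8 h (log2 change 0.50, SE 0.071, adjusted p 3.4e-05). PDK1, a kinase that inhibits pyruvate dehydrogenase, went from 15.7, 22.5 and 15.2 to 30.4, 28.8 and 32.6 CPM. P4HA1, a collagen prolyl hydroxylase, went from 39.8, 43.8 and 40.4 to 62.8, 59.4 and 70.0. NDRG1, a stress-induced gene, had 575, 501 and 609 CPM and then 817, 840 and 1190. In all 11 risen members 8 h replicate 3 was the highest of the 8 h libraries, while the 8 h groups of the 6 kept members lay wholly above the 0 h group. CA9, carbonic anhydrase IX, was low in every library (0.251 to 0.488 CPM at 0 h, 0.39 to 0.883 at 8 h) and did not pass the threshold (adjusted p 0.329), nor did the glucose transporter SLC2A1 (log2 change 0.07, adjusted p 0.717). STC1, stanniocalcin 1, which is no member of the list and was picked after its values were seen, rose from 0.239, 0.0971 and 0.101 to 0.638, 0.773 and 1.30 CPM, again highest in replicate 3. Glycolytic enzymes, many of which share the hypoxia control, gave 0 rises and 7 falls of 18, 2 of them kept (HK1 and PFKM); with the GC trend removed there were 3 rises and 3 falls. Without 0 h replicate 1, 0 h replicate 3 or 8 h replicate 1 the number of falls was 3, 2 and 3, and without 0 h replicate 2 it was 11.

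Proteases and their inhibitors, which control the turnover of matrix, had a median of 0.64. Of 20 members 12 rose and 2 fell, and 8 rises and 1 fall were kept; with at least 10 counts in every library, which leaves low members out, 7 rose, 3 fell and the median was 0.16. Among the collagenases and stromelysins, MMP9 went from 1.22, 0.874 and 1.09 to 3.04, 3.71 and 4.93 CPM (log2 change 1.87, SE 0.26, adjusted p 3.01e-05) and MMP10 from 2.36, 1.91 and 2.79 to 4.55, 4.62 and 7.23. In the plasminogen system, the activator PLAU (urokinase) had 49.0, 45.2 and 50.5 CPM at 0 h and 93.9, 88.9 and 108 at 8 h (log2 change 1.01, SE 0.074, adjusted p 1.21e-08). Its receptor PLAUR rose by 0.65, and so did inhibitors of plasminogen activators, SERPINE2 by 0.89 and SERPINB2 by 2.56. SERPINB2 had 1.08, 1.39 and 0.904 CPM at 0 h and 6.18, 5.21 and 8.61 at 8 h. The other activator, PLAT, moved the other way, from 128, 124 and 128 to 102, 105 and 97.3 CPM (log2 change -0.32, SE 0.041, adjusted p 1.03e-05), and was kept. As in the hypoxia list, 8 h replicate 3 was the highest 8 h library in 10 of the 12 risen members.

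The promoters of these genes were searched for AP-1, the binding site of the FOS and JUN factors. In the 250 bases before the start of the gene (RefSeq promoters, GRCh38.p14), the motif TGANTCA, searched on both strands, was found in 6.57% of 35116 promoters. N stands for any base, so matches such as TGAATCA are counted. Of the 12 protease and inhibitor genes with a promoter in the table it was found in 6, namely MMP7, MMP10, PLAUR, SERPINB2, SERPINB5 and TFPI2, all called higher. Of the 20 members of the whole list 12 were called higher, and a link between motif and rise was not tested. Among kept genes as a whole it was found in 6.74% of 356 promoters of those that rose and 6.16% of 357 of those that fell. The 6.57% covers every promoter searched, whereas the lists take a single promoter per gene. The protease list was chosen with earlier results of these data known, so its share is not independent evidence. A match describes the letters of this window and is not evidence of binding. Windows around the match are shown for the 3 kept genes with one, each on the gene's strand with the motif in capitals: SERPINB2 at chr18:63887558-63887654 on the plus strand, MMP10 at chr11:102780644-102780740 and PLAUR at chr19:43670304-43670400 on the minus strand.
SERPINB2: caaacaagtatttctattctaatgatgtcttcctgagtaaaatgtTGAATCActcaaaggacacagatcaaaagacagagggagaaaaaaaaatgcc
MMP10: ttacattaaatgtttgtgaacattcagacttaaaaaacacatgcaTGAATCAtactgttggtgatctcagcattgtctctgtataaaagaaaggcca
PLAUR: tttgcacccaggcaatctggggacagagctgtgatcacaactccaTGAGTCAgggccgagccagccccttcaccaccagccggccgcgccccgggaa

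Inflammatory cytokines and NF-kB genes rose as well. Of 22 members 21 were tested (IL6 was listed at 0 counts in all 6 libraries); 13 rose and 1 fell, 7 rises were kept, and the median was 0.56. IL1A, the alarm cytokine of epithelia, had 32.5, 38.9 and 38.1 CPM at 0 h and 57.9, 56.7 and 63.7 at 8 h (log2 change 0.70, SE 0.072, adjusted p 8.23e-07). CCL20, a chemokine for dendritic cells and lymphocytes, went from 2.24, 2.21 and 2.46 to 4.62, 4.17 and 5.45 CPM. Among the neutrophil chemokines CXCL1 went from 4.28, 4.23 and 4.83 to 6.72, 7.51 and 7.58 CPM, and CXCL2 and CXCL3 rose by 0.56 and 0.91. CXCL1, CXCL2 and CXCL3 are close copies, so reads could have been shared among them. CXCL8 rose by 1.02 (adjusted p 0.000766) but was not called in 3 of the other fits. PTGS2, the inducible cyclooxygenase, rose by 0.88. Of the feedback inhibitors TNFAIP3 rose by 0.54, from 30.4 to 36.7 CPM up to 45.5 to 53.2 CPM, whereas NFKBIA fell by 0.24, from 154, 159 and 180 to 139, 140 and 139 CPM.

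The NF-kB consensus, a 10-base motif searched on both strands, was found in 6.88% of the 35116 promoters and in 10 of the 19 promoters of this list. The list was put together from NF-kB genes and cytokines, so a high share could follow from that choice and says nothing about the rise. The 6.88% covers every promoter searched, whereas the lists take a single promoter per gene. It was found in 12.6% of the promoters of kept rises and 6.44% of those of kept falls. Of the 10 genes CXCL1, CXCL2, CXCL3, CCL20, TNFAIP3 and BIRC3 rose, NFKBIA fell, NFKBIZ (log2 change 0.29, adjusted p 0.161) and NFKB1 (0.06, adjusted p 0.387) did not pass the threshold and IL6 was not tested. None of the 10 promoters also held the AP-1 motif. The 3 chemokine promoters are shown because these close copies rose together and carry the same letters at the match, in capitals: CXCL1 at chr4:73869269-73869368 on the plus strand, CXCL2 at chr4:74099219-74099318 and CXCL3 at chr4:74038714-74038813 on the minus strand.
CXCL1: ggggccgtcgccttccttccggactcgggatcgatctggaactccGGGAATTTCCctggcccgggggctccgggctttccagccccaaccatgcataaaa
CXCL2: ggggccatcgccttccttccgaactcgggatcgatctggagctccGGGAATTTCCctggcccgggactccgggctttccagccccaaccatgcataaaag
CXCL3: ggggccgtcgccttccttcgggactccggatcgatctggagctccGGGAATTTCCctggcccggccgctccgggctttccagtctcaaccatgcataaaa

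**Figure D3:**
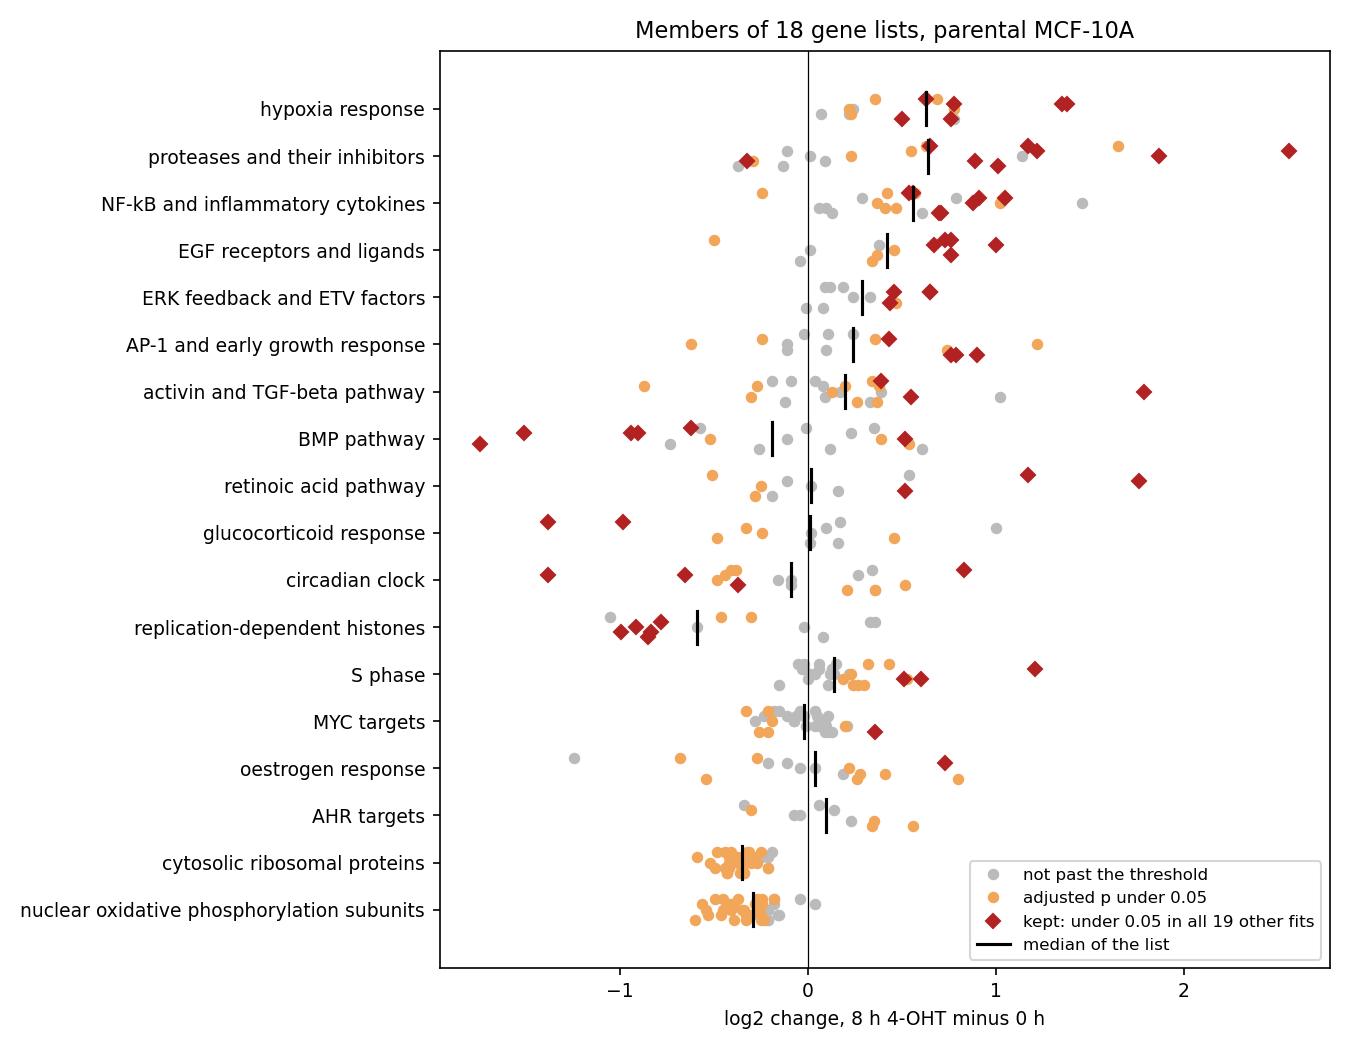
Log2 change at 8 h (x axis) of the reported members of 18 gene lists, with a bar at the list's median. Members are grey where not past the threshold and orange where adjusted p was under 0.05. Dark diamonds mark kept members, called in all of the 19 other fits. Hypoxia, protease and cytokine lists have medians of 0.63, 0.64 and 0.56 with kept members, while the 34 ribosomal protein genes have a median of -0.35 with none.

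Several ligands of the epidermal growth factor receptor family rose. Of 12 tested members of that family 8 rose and 1 fell; the 5 kept members were all ligands, and the median was 0.42. TGFA had 26.7, 29.4 and 25.7 CPM at 0 h and 44.1, 41.1 and 44.8 at 8 h (log2 change 0.67, SE 0.060, adjusted p 1.66e-07). AREG went from 52.2, 58.2 and 67.4 to 97.9, 97.5 and 99.6 CPM and HBEGF from 28.3, 23.9 and 29.7 to 46.3, 43.2 and 49.2. NRG1, a ligand of ERBB3 and ERBB4, rose by 0.76, and BTC, a low one, by 1.00 on the log2 scale, from 0.577, 0.994 and 0.743 to 1.75, 1.49 and 1.39 CPM. EREG differed by 0.38 and did not pass the threshold (adjusted p 0.0727), with 0 h replicate 2 at 34.6 CPM, above all 8 h libraries. Among receptors EGFR itself rose by 0.37 (adjusted p 0.00974) and ERBB3 fell by 0.50, which 5 and 2 other fits did not call.

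Genes that ERK signalling induces downstream of these receptors were read next. Of 12 feedback genes and ETV factors 5 rose and 0 fell, and 4 were kept. SPRY4, an inhibitor of receptor signalling, had 52.8, 62.9 and 52.2 CPM at 0 h and 89.5, 85.8 and 87.3 at 8 h. PHLDA1 rose by 0.65, and the ERK phosphatases DUSP4 and DUSP6 by 0.46 and 0.44. Of 15 AP-1 and early growth response genes 7 rose and 2 fell (9 and 0 with the GC trend removed), and 4 rises were kept: FOS went from 39.0, 41.8 and 42.2 to 73.7, 69.1 and 87.2 CPM (log2 change 0.90, SE 0.075, adjusted p 6.14e-08), KLF6 rose by 0.76, IER3 by 0.79 and EGR1 by 0.43. JUND, with 51.5, 35 and 55.7 CPM at 0 h and 28.9, 31.3 and 32.3 at 8 h, fell by 0.62 but not in 4 of the other fits.

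The TGF-beta and BMP branches of the same ligand superfamily were read separately. In the activin and TGF-beta pathway 10 of 23 members rose and 3 fell, with a median of 0.20 (7, 1 and 0.12 with the GC trend removed); only 4 rises were kept, INHBA, SMAD3 and PMEPA1 among them, and without 0 h replicate 3 or 8 h replicate 2 the number of rises was 4 and 6. SMAD3, which carries the activin signal to the nucleus, had 37.0, 40.9 and 33.5 CPM at 0 h and 53.1, 52.8 and 56.9 at 8 h (log2 change 0.55, SE 0.060, adjusted p 1.49e-06). PMEPA1, a target and feedback inhibitor, rose by 0.39. In the BMP pathway 3 of 18 tested members rose and 6 fell, with a median of -0.19, and the 5 kept falls were all target genes or antagonists. ID1 and ID2, which block basic helix-loop-helix factors, had 371, 290 and 399 and 25.3, 30.6 and 31.1 CPM at 0 h and 228, 229 and 232 and 14.8, 16.2 and 15.5 CPM at 8 h. SMAD6, the inhibitory SMAD of the pathway, went from 11.4, 12.3 and 11.4 to 6.37, 6.56 and 5.30 CPM (log2 change -0.94, SE 0.10, adjusted p 1.42e-06). NOG, the BMP antagonist noggin, went from 2.40, 1.86 and 2.32 to 0.657, 0.836 and 0.469 CPM, and ATOH8 is given above. The ligand BMP2 rose by 0.52 and was kept, and without 0 h replicate 2 the number of rises was 6 and the median -0.03. ID3 fell by 0.52 but not in 2 of the other fits.

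In the retinoic acid pathway, 3 of 11 tested members rose and 3 fell, beside 15.0% higher and 16.0% lower over all genes tested. The 3 rises were kept and the falls were not; without 8 h replicate 1 the number of falls was 1. With the synthesis enzyme ALDH1A3, given above, rose CYP26B1, which breaks retinoic acid down, from 22.4, 26.1 and 22.2 to 31.7, 33.0 and 36.8 CPM, and STRA6, the receptor that takes up retinol, from 1.34, 1.01 and 1.44 to 2.61, 2.58 and 3.31 CPM. DHRS3, a retinal reductase that retinoic acid induces, had 21.7, 16.2 and 23.7 CPM at 0 h and 16.9, 15.8 and 18 at 8 h, with overlapping groups.

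Genes that glucocorticoids induce included 5 falls and 1 rise among 12, with a median of 0.01, and 4 of each without 0 h replicate 2. TSC22D3 and CEBPD were kept, the latter going from 101, 85.3 and 119 to 48.7, 54.5 and 51.9 CPM. PER1, which is both a glucocorticoid target and a clock gene, fell by 0.48 but not in 1 of the other fits. FKBP5, DUSP1 and SGK1 did not pass the threshold. In the circadian clock 4 of 17 tested genes rose and 7 fell, 1 rise and 3 falls being kept. The shares over all genes tested were 15.0% higher and 16.0% lower. BHLHE40, a repressor of the clock that hypoxia also induces, had 105, 114 and 105 CPM at 0 h and 190, 177 and 209 at 8 h (log2 change 0.83, SE 0.079, adjusted p 3.44e-07). The output factors DBP and TEF fell by 1.38 and 0.65, DBP from 3.77, 2.97 and 4.32 to 1.31, 1.5 and 1.43 CPM.

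FOXO factors, which growth factor signalling through AKT turns off, and their targets gave 2 rises and 7 falls among 15, with a median of -0.19. PDK4, which spares glucose, went from 10.9, 13.4 and 9.28 to 5.64, 6.24 and 5.39 CPM and with BCL6 was kept, as was 1 rise, that of DEPP1, from 2.38, 2.20 and 3.21 to 6.60, 6.63 and 13 CPM. BMF, a pro-apoptotic BH3-only gene outside the list, picked after its values were seen, fell from 2.28, 2.15 and 2.05 to 0.742, 0.633 and 0.488 CPM. In the p53 family and its targets 2 of 18 rose and 8 fell; 4 falls were kept, TP73, GDF15 and SESN1 among them. GDF15, a stress cytokine, had 4.66, 4.02 and 5.14 CPM at 0 h and 1.92, 2.05 and 1.95 at 8 h. CDKN1A, the cell cycle inhibitor p21, did not pass the threshold (-0.12, adjusted p 0.104).

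Cell cycle genes were read by phase, beside 15.0% higher and 16.0% lower over all genes tested. Of 28 S phase genes 11 rose and 0 fell, with a median of 0.14, and CCNE2, RRM2 and GINS1 were kept. RRM2, the small subunit of ribonucleotide reductase, had 126, 154 and 143 CPM at 0 h and 224, 203 and 214 at 8 h. Of 30 genes of G2 and mitosis 9 rose and 1 fell, with a median of 0.09, and CCNA2 alone was kept (log2 change 0.39, SE 0.064, adjusted p 0.000125); 5 rose without 8 h replicate 1 and 2 with the GC trend removed, and the median was 0.02 without 0 h replicate 1. Histone genes gave 7 falls and 0 rises among 13, 5 of them kept, and a median of -0.59, which was -0.30 with the GC trend removed and -0.22 with GC and length trends removed. H2AC6 had 45.6, 44.7 and 47.8 CPM at 0 h and 21.9, 24.3 and 23.4 at 8 h (log2 change -0.99, SE 0.059, adjusted p 8.55e-10). Replication-dependent histone mRNAs carry no poly(A) tail as a rule, so poly(A) selection recovers only part of them, and their counts here need not follow their cellular level.

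MYC had 462, 535 and 599 CPM at 0 h and 471, 475 and 443 at 8 h, with overlapping groups and a log2 change of -0.20 that was not called in 11 of the other fits. Of 30 MYC targets 2 rose and 5 fell, with a median of -0.02, and only ODC1, the first enzyme of polyamine synthesis, was kept, rising by 0.36. The number of falls depended on single libraries, with 10 without 0 h replicate 2 and 0 or 1 without any other library. MXD4, which competes with MYC for its partner MAX, fell by 0.62, from 125, 110 and 133 to 74.3, 82.2 and 82.0 CPM, and MXD3 by 0.60; both were kept.

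Ribosomal protein genes and nuclear genes of oxidative phosphorylation fell in large numbers, and none was kept. Of 34 ribosomal protein genes 30 fell, with a median of -0.35, and of 38 respiratory chain genes 29 fell, with a median of -0.29. In every one of the 30 and of the 29 the lowest 0 h library was replicate 2. RPLP0, for example, had 2270, 1790 and 2640 CPM at 0 h and 1580, 1710 and 1700 at 8 h. The fit of the 6 libraries called 0 genes in either list, and without 0 h replicate 3 the counts were 17 and 16. Without 0 h replicate 2 they were 34 and 35, with medians of -0.49 and -0.42, and with the GC trend removed 27 and 22. In MYC-ER cells 32 of the ribosomal protein genes were called lower and 0 higher. Of the respiratory chain genes 18 were called lower there and 8 higher. Of the 13 genes of the mitochondrial genome 3 rose, and none without 0 h replicate 1, the library with a mitochondrial share of 3.86%, or without 8 h replicate 3, against 5 without 0 h replicate 2.

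Sterol genes were split. Of 23 tested 10 rose and 7 fell, with a median of -0.01. The rises included HMGCS1, from 141, 170 and 128 to 267, 252 and 272 CPM (log2 change 0.85, SE 0.070, adjusted p 5.32e-08), and INSIG1, which holds back the sterol sensor (0.44), both kept. LSS, lanosterol synthase, fell by 0.51 and was kept. The number of falls was 4 without 0 h replicate 1 or 3 and 11 without replicate 2. SREBF1, the lipogenic transcription factor, fell from 266, 233 and 276 to 161, 179 and 165 CPM and was kept. LXR targets, which export cholesterol, gave 4 falls and 0 rises among 7, ABCG1 being the kept one, with 27.1, 26.5 and 27.6 CPM at 0 h and 14.8, 14.8 and 13.3 at 8 h (log2 change -0.92, SE 0.078, adjusted p 8.02e-08).

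Lysosome and autophagy genes gave 10 falls and 2 rises among 19 tested, with 4 kept falls: SQSTM1, the autophagy receptor p62, went from 649, 523 and 601 to 426, 419 and 411 CPM, and GABARAPL1, MCOLN1 and ATP6V1H also fell. Of 15 targets of NRF2, the factor of the oxidative stress response, 4 rose and 9 fell (4 and 6 with the GC trend removed). AKR1C1, an aldo-keto reductase that inactivates progesterone, had 623, 494 and 641 CPM at 0 h and 319, 304 and 289 at 8 h, and AKR1B10 and TKT were also kept falls; GCLM, of glutathione synthesis, was the kept rise (0.60). HMOX1 fell by 0.42 but not in 6 of the other fits, and NQO1 did not pass the threshold (0.14, adjusted p 0.0777). Genes of endoplasmic reticulum stress, which are chaperones, degradation factors and the transcription factor XBP1 among others, gave 13 rises and 0 falls among 16, with a median of 0.25, but only HSPA5 (BiP) was kept, at 670, 613 and 672 CPM and then 921, 827 and 889. In the fit of the 6 libraries HSPA5 was the single call of that list.

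Markers of basal mammary epithelium were abundant in every library, and as a list they were split. Of 11 tested, 3 rose (LAMA3, KRT17 and EGFR) and 3 fell (ACTA2, KRT14 and KRT5), with a median of 0.06. LAMA3 and ACTA2 were kept. KRT5 stood at 12000 to 14100 CPM at 0 h and 11000 to 11500 at 8 h, KRT14 at 7570 to 10900 and 6870 to 7550, and both fell in the fit of all libraries but not with the GC trend removed. TP63 differed by 0.06 and did not pass the threshold (adjusted p 0.734). KRT15, another basal keratin, fell from 355, 281 and 359 to 148, 182 and 199 CPM, and KRT10, a keratin of differentiating layers, from 563, 533 and 523 to 391, 315 and 311; both were kept. Among 13 tested genes of the epithelial to mesenchymal transition 3 rose (6 without 0 h replicate 2) and 2 fell, and 2 rises and 1 fall were kept. OVOL1, an epithelial transcription factor, fell by 0.79, while ZEB1 and CDH2, which mark mesenchymal change, rose by 1.22 and 0.70. ZEB1 had 2.79, 4.44 and 2.19 CPM at 0 h and 6.70, 7.52 and 7.82 at 8 h. GJB2, a gap junction connexin, went from 117, 133 and 133 to 248, 218 and 296 CPM, the only kept one of 20 junction genes, of which 6 rose and 4 fell. The number of falls was 1 without 0 h replicate 1, 2 without 0 h replicate 3, 8 h replicate 1 or 8 h replicate 2, and 0 with the GC trend removed.

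In the basement membrane, 7 of 20 genes rose and 5 fell, with 5 kept rises and 2 kept falls, and without 8 h replicate 1 the number of falls was 3. LAMA3, a chain of laminin-332, rose by 0.45. COL4A1 and COL4A2, the collagen IV chains, rose by 0.93 and 0.44, and THBS1, thrombospondin 1, by 0.89. LAMB1, a chain of other laminins, fell by 0.38 and NID1, nidogen, by 1.33. Among integrins 7 of 12 rose and 0 fell, but ITGA2 alone was kept; without 0 h replicate 1 the number was 3.

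Markers of other cell types were low or moved down. Of 7 fibroblast markers 4 were tested and 2 fell, COL1A1 from 105, 83.2 and 93.8 to 60.9, 59.2 and 56.9 CPM and DCN by 0.37, while COL1A2, COL3A1 and PDGFRA had 0 to 10 counts per library. Of 6 endothelial markers CDH5 and CLDN5 had 0 to 4 counts, and KDR, at 0.975 to 1.51 CPM at 0 h, fell by 1.18. Of 7 leukocyte markers PTPRC, CD3E, MS4A1 and LYZ had 0 to 10 counts, while CD14 and CSF1R, both called lower, stood at 6.07 to 9.03 and 22.1 to 25 CPM at 0 h. Of 5 adipocyte markers 3 were tested and none passed the threshold. The summed level of all markers of a type at 0 h and at 8 h was 117 to 133 and 80.5 to 88.5 CPM for fibroblasts, 2.30 to 2.89 and 1.60 to 1.75 CPM for endothelium, 28.2 to 34.0 and 22.5 to 24.2 CPM for leukocytes, and 0.648 to 1.02 and 0.735 to 0.766 CPM for adipocytes. For basal epithelium it was 25800 to 31500 and 26000 to 26900 CPM, and for luminal epithelium, of whose 8 tested markers 1 fell (GATA3, by 0.38), 310 to 440 and 369 to 394 CPM. The part of other cell types in the results was not tested, and in bulk RNA fewer cells of a type and less RNA per cell cannot be told apart.

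The same 8 h contrast in the MYC-ER line, which shares no library with the parental one, was set beside it. There 67.6% of genes passed the threshold, and the difference between the 2 changes (the line by time interaction) passed it for 55.2%. Of the 480 kept rises 413 also rose in MYC-ER cells, 38 fell and 29 did not pass; of the 518 kept falls 452 fell, 29 rose and 37 did not pass. The median changes there were 1.67 and -1.32 against 0.67 and -0.67 in parental cells. The interaction passed for 395 of the kept rises, 319 of them with the larger value in MYC-ER, and for 390 of the kept falls, 315 with the lower value in MYC-ER. All 11 of these parental rises rose in MYC-ER and 11 of the 12 falls fell. GPER1 was the exception: it had a mean of 5.80 CPM at 0 h and 5.69 at 8 h in MYC-ER cells, a log2 change of -0.03 (adjusted p 0.825), and the interaction was 1.20 (SE 0.14, adjusted p 2.17e-07).

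Some kept genes went opposite ways. CXCL1, CXCL2 and TNFAIP3 rose in parental cells and fell in MYC-ER cells by 1.40, 2.08 and 1.12, with interactions of -2.11, -2.64 and -1.66 (adjusted p 2.53e-09, 9.17e-11 and 1.09e-12). ID1 fell by 0.62 in parental cells and rose by 1.61 in MYC-ER cells, an interaction of 2.23 (adjusted p 9.81e-13). TEF and AKR1B10 also fell in parental cells and rose in MYC-ER cells, with interactions of 1.15 and 0.94. For IL1A, DBP, CEBPD and AKR1C1 the 2 changes were 0.70 and 0.82, -1.38 and -1.63, -0.98 and -1.05, and -0.95 and -1.13, and none of the 4 interactions was called (adjusted p 0.353, 0.248, 0.712 and 0.199). SERPINB2 rose more in parental cells, by 2.56 against 1.75 (interaction -0.81, adjusted p 0.0368). Of 30 MYC targets, with 2 rises in parental cells, all 30 rose in MYC-ER cells, and the interaction passed for all 30.

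**Figure D4:**
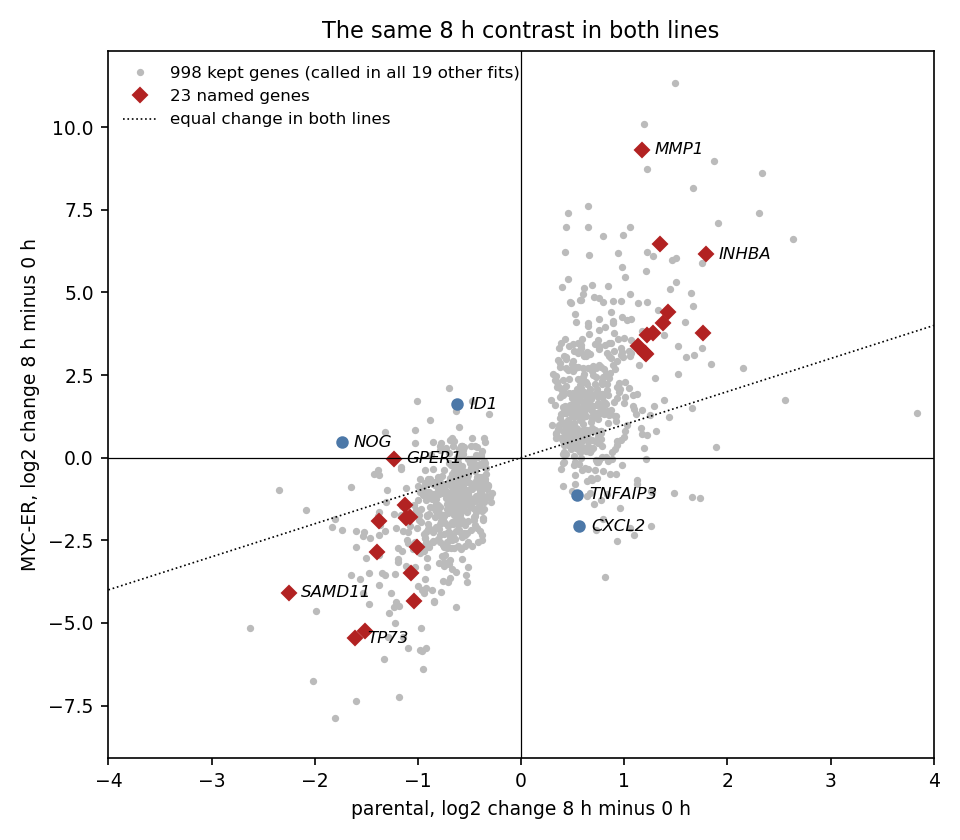
Log2 change at 8 h in MYC-ER cells (y axis) against that in parental cells (x axis) for the 998 kept genes (grey), 23 of the named genes (diamonds) and 4 kept genes whose fitted changes have opposite signs (circles), with a dotted line at equal change; 4 genes lie beyond the x axis. Most points lie in the lower left and upper right, and GPER1 lies at -1.23 in parental and -0.03 in MYC-ER cells.

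The parental series goes on to 24 and 48 h, and levels there are given without a further test, since these times share the 0 h libraries. INHBA stood at 4.93 ± 1.23 CPM at 0 h (SD, n = 3), 17.1 ± 3.18 at 8 h, 30.8 ± 1.24 at 24 h and 18.1 ± 1.75 at 48 h. EGLN3 stood at 14.3 ± 5.72, 19.3 ± 8.18 and 23.2 ± 7.61 CPM at 8, 24 and 48 h, with SDs that are wide beside the differences between these times. ITGA2 stood at 100 ± 3.61, 123 ± 6.04 and 113 ± 2.45 CPM at the same times. The means of both were farther from their 0 h level at 48 h than at 8 h. ALDH1A3 was highest at 8 h, with 26.2 ± 2.94 CPM, then 17.6 ± 0.561 and 10.8 ± 0.840. MMP1 was at 17.2 CPM at 24 h and at 4.67 at 48 h, under its 0 h mean of 7.23. Among the falls, TP73 stood at 10 and 17.6 CPM, TSC22D3 at 74.4 and 114, BCL6 at 17.0 and 27.1 and GPER1 at 12.4 and 16.6 CPM at 24 and 48 h. ATOH8 stayed at 5.49 and 5.67 CPM, close to its 8 h mean.

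**Figure D5:**
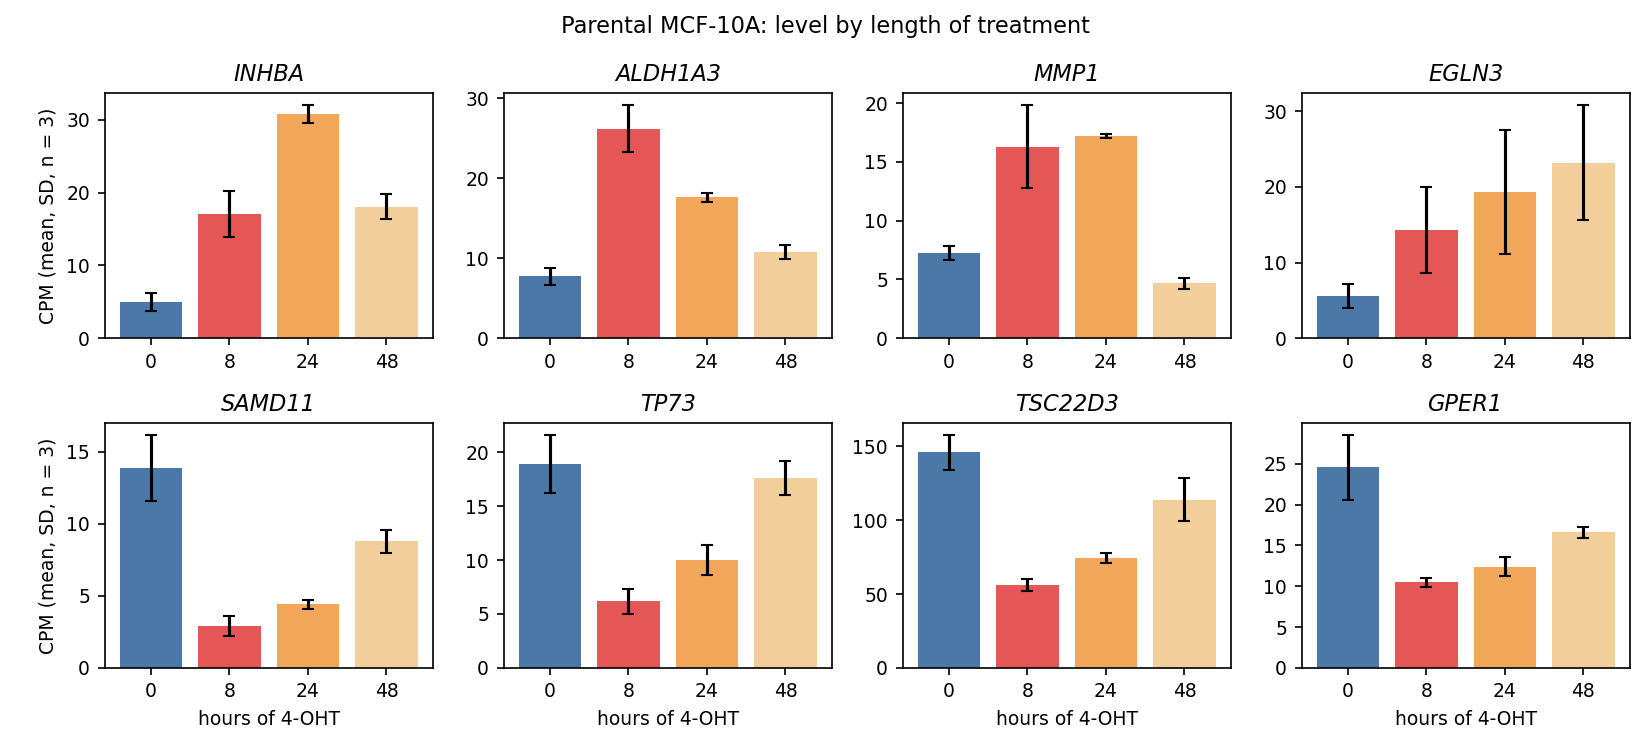
Mean CPM with SD (n = 3) of 4 genes that rose and 4 that fell at 8 h, in parental cells after 0, 8, 24 and 48 h of 4-OHT (x axis); bars start at 0. ALDH1A3 peaks at 8 h with 26.2 CPM, INHBA at 24 h with 30.8 CPM, and SAMD11, TP73 and TSC22D3 are lowest at 8 h.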

How the data were processed

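Poly(A)-selected, stranded RNA libraries were sequenced as 150-base paired reads, 3 libraries to a lane, per the labels, which do not say how libraries were spread over lanes. The table the authors deposited gives raw counts, as whole numbers, for 60668 Ensembl gene identifiers. The submitters' processing notes name Trimmomatic 0.39, STAR, StringTie 2.1.3b and GRCh38, with no role. If counts were derived from StringTie coverage they are estimates, and the strand setting and treatment of reads shared by genes are not given in the sources used here. A symbol was found for 60295 identifiers.

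After filterByExpr and TMM scaling, a model with a mean for each group was fitted to all 24 libraries in edgeR 4.0.16 under R 4.3.3. The contrast was tested with the two-sided quasi-likelihood F test and Benjamini-Hochberg adjustment. CPM values use TMM-scaled totals. On simulated data for this contrast (21699 genes) 66.2%, 92.4% and 100% of changes of 0.5, 1 and 2 on the log2 scale were called, with 8 false calls. The simulation gave a gene the same spread in every group and no GC trend between replicates. The measured 0 h libraries had a wider spread and opposed GC trends, so these shares need not hold for them. The members, lists and tests were chosen with earlier results of these data known, so no list is independent evidence. Named genes are the 12 largest rises and 12 largest falls past the threshold with at least 10 CPM in the higher group, no overlap of replicates and a proper symbol (1 is not reported here), then up to 4 called members of a list by adjusted p, its defining members, and MYC, ESR1 and markers. Further members and all genes outside the lists were picked after their values were seen. The 44 pathway lists hold 749 genes, of which 719 were tested; lists are described by counts and medians, with no set test.

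Other fits changed the scaling (DESeq2 size factors, upper quartile or library size alone), the filter (none, or at least 10 counts in all libraries) or the tool (DESeq2 1.42.0, Wald test), or used the 6 or the 12 parental libraries, a replicate block, GC (and length) trends removed by lowess offsets (span 0.3; longest GENCODE 29 transcript), combinations of these, and each library left out. A kept gene was called in the same direction in all 19 fits other than that with at least 10 counts in every library, which leaves low genes untested. Motifs were searched in RefSeq promoters matched by symbol.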

Additional observations from a re-analysis of the deposited data

Results flagged for a closer look

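All 23 genes named above as the largest changes differed in their 8 h change between the parental and the MYC-ER line, by the line by time interaction in edgeR's quasi-likelihood test with Benjamini-Hochberg adjustment. Values are the log2 change in MYC-ER minus that in parental cells, so comparisons of size below refer to the log2 scale and not to CPM. For the 11 parental rises all were positive, the MYC-ER line rising more: 4.35 for INHBA, 2.01 for ALDH1A3, 2.98 for LRRC8C, 2.69 for ANGPTL4, 5.11 for EGLN3, 2.48 for PRDM1, 2.49 for F3, 1.94 for CCNE2, 1.96 for SNX10, 8.15 for MMP1 and 2.24 for ITGA2. For 11 of the parental falls the MYC-ER line fell further: -1.83 for SAMD11, -3.86 for TP73, -3.73 for ATOH8, -1.45 for WFDC21P, -0.54 for TSC22D3, -0.29 for PPFIBP2, -0.71 for H4C15, -0.71 for H4C14, -2.42 for BCL6, -3.28 for PRODH and -1.70 for GNAO1. GPER1 alone had a fall that was larger in parental cells, with 1.20. The lines also started from different levels: INHBA had a mean of 4.93 CPM at 0 h in parental and 0.364 CPM in MYC-ER cells, and MMP1 7.23 and 0.052 CPM. CCNE2 went from a mean of 7.64 to 17.7 CPM in parental and from 0.655 to 5.82 CPM in MYC-ER cells, so in CPM it rose less in MYC-ER.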

How the results depend on the processing

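The 23 named genes kept their direction and stayed past the threshold under every alternative that tested them, and no value reversed. MMP1 was at 0.0397 to 0.0696 CPM in the MYC-ER 0 h libraries. The fit with at least 10 counts in every library therefore did not test it. The count of genes called, 6870 as reported, was 1452 with only the libraries compared, 4224 with only the 12 parental libraries and 1825 with the GC trend removed and only the libraries compared. It ranged from 4720 (without 0 h replicate 1) to 9166 (without 0 h replicate 2) with 1 library left out. The count at least 2-fold, 483 as reported, was 242 with at least 10 counts in every library, 242 with only the libraries compared and 225 with the GC trend removed and only the libraries compared, and ranged from 353 to 860 with 1 library left out, 860 being without 0 h replicate 2. The interaction count of 12227 ranged from 11675 to 12991 with 1 library left out. Deviations of same-numbered 0 h and 8 h libraries had correlations of 0.00851, 0.0894 and 0.116, and those of other pairs ran from -0.173 to 0.145. These values cannot tell whether same-numbered libraries shared a culture or a lane. With the replicate block the counts were 6621, 463 and 12040, and with the block and the GC trend removed 5074, 372 and 12360. With the GC trend removed and 0 h replicate 2 left out, chosen after seeing the data, they were 7118, 618 and 12796. Of 1760 counts of list members under an alternative 399 moved by over 1.5 times. Depth limits low genes: 16056 genes were tested with at least 10 counts in every library, against 22158.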

Other observations

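Other stress and signalling lists held few kept members. Of 18 targets of ATF4, the factor of the amino acid response, 3 rose and 8 fell, with a median log2 change of -0.20; with the GC trend removed 4 rose and 5 fell and the median was -0.06. The kept falls were SESN2, an inhibitor of mTORC1 signalling, from 49.4, 41.1 and 45.6 CPM at 0 h to 31.0, 32.1 and 29.7 at 8 h, and NUPR1, a stress-induced nuclear protein, from 122, 79.4 and 123 to 57.5, 58.6 and 58.0. ATF4 itself fell by 0.27 (adjusted p 0.00538) but was not kept. Of 12 heat shock chaperones 6 rose and 1 fell, with a median of 0.16. HSP90AA1, the inducible HSP90, was the kept one, from 1780, 1680 and 1590 to 2260, 2110 and 2180 CPM, and its change of 0.38 stood beside 2.75 in MYC-ER cells. Of 19 tested interferon-stimulated genes 1 rose and 5 fell (3 without 0 h replicate 1, 8 h replicate 1 or 8 h replicate 3). OAS1, which senses double-stranded RNA, was kept, from 43.4, 38.3 and 47.9 to 26.5, 30.1 and 28.8 CPM, and it went the other way in MYC-ER cells, where it rose by 0.92 (interaction adjusted p 2.86e-11).

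In the WNT pathway 6 of 16 tested genes rose and 0 fell, with a median of 0.12, beside 15.0% higher and 16.0% lower over all genes tested. The kept rises were the paired DNA-binding partners of beta-catenin, LEF1, from 2.97, 3.15 and 3.37 to 4.89, 5.10 and 5.26 CPM, and TCF7, from 0.454, 0.366 and 0.327 to 0.950, 0.697 and 0.704 CPM. In the Notch pathway 1 of 14 tested genes rose and 4 fell (2 and 1 with the GC trend removed), LFNG, the glycosyltransferase that tunes Notch receptors, being kept, with 28.7, 23.4 and 27.5 CPM at 0 h and 16.1, 16.0 and 16.3 at 8 h. Of 12 tested genes of YAP and TAZ signalling 5 rose and 1 fell and none was kept. WWTR1, which encodes TAZ, rose by 0.53, with 0 h replicate 2 at 40.7 CPM between the other 0 h libraries (29 and 27.8) and the 8 h group (45.1 to 48.0). Of 11 fatty acid synthesis genes 4 rose (2 without 0 h replicate 1, 8 h replicate 2 or 8 h replicate 3) and 4 fell, with SREBF1 the kept one; FASN, fatty acid synthase, had 1920, 1570 and 1620 CPM at 0 h and 1130, 1210 and 1100 at 8 h and was not kept. Of 21 tested genes of squamous differentiation 1 rose and 7 fell (2 without 0 h replicate 3 or 8 h replicate 1, and 3 rises and 5 falls with the GC trend removed), KRT10 being the kept fall; that of KRT13 rests on 81 and 131 counts in 0 h replicates 2 and 3, with 0 counts in the other 4 libraries. MALAT1 and NEAT1, long RNAs retained in the nucleus, did not pass the threshold (log2 changes 0.20 and 0.17).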
